A study of Sus scrofa with 2 samples.

Results

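KLF2, S1PR1 and IL7R, 3 genes of lymphocyte recirculation and maintenance, were described in single cells of pig endometrium. They are 3 of the 26881 features listed in the count tables, of which 10753 carry a gene symbol, and each was found there under 1 identifier (KLF2 as ENSSSCG00025011156, S1PR1 as ENSSSCG00025019072, IL7R as ENSSSCG00025016141). The genes were selected because earlier results of these same data showed them lower in lymphocytes of the embryo loss sow. Their difference between the sows in lymphocytes is therefore given as a description and supports nothing by itself.

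The embryo loss group (EL) is 1 Yorkshire sow with an earlier abortion and 3 failed artificial inseminations in a row. The successful implantation group (EIS) is 1 Yorkshire sow sampled 30 days after insemination. Both sows were 3 years old and of similar genetic background, and the endometrium was taken from the uterine horns, digested with collagenase and protease and filtered, so only cells that survive this are seen. The labels give no day of gestation for the EL sow. Each group is 1 library of 10x Genomics 3′ single-cell RNA sequencing, so sow, pregnancy, stage and library cannot be told apart, and no test between the groups exists. All intervals below are exact 95% intervals for counting error only: Poisson for a level, conditional binomial for a fold, Clopper-Pearson for a share.

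KLF2 is a zinc finger transcription factor of quiescent lymphocytes, of monocytes and of endothelium under flow. In mouse T cells it activates the gene of S1PR1, the receptor that senses sphingosine 1-phosphate and lets lymphocytes leave a tissue toward lymph or blood. In mice, T cells that settle in a tissue lower both genes. IL7R is the alpha chain of the receptor for interleukin 7, a survival signal for naive and memory T cells and for innate lymphoid cells.

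Cell filtering left 9864 EL cells, whose median depth was 2338.5 unique molecular identifiers (UMIs), and 8068 EIS cells, whose median depth was 2248. A cell was assigned to a class when UMIs of at least 3 different markers of that class were present in it. Levels are CPM, the gene's UMIs over all UMIs of the class, summed over its cells and multiplied by 1000000. The lymphocyte gate, from T and natural killer cell markers, held 141 EL cells and 348 EIS cells. Their median depth was 1405 UMIs in EL and 1865.5 UMIs in EIS. Of these, 94.3% in EL and 97.7% in EIS lay in clusters that lymphocyte markers also defined. The summed level of the 9 lymphocyte markers in the files was 2921 CPM in EL and 2951 CPM in EIS, with CD3G at 0 in both. These markers made the gate, so their level is no separate check of it. Markers of other cell types differed in the gate too. The 9 stromal markers summed to 27.9 CPM in EL, with 4 detected, against 328 CPM in EIS, with 9 detected. For the 5 epithelial markers, all detected in both, the sum was 172 CPM in EL against 44.9 CPM in EIS. Together the 8 trophoblast markers reached 255 CPM in EL, with 3 detected, against 692 CPM in EIS, with 7 detected. Their list includes GATA3, which was found in all 3 lymphocyte clusters described below. GATA3 had 604 of the list's 789 CPM in EL and 577 of 1158 CPM in EIS in the RHEX cluster. In the XCL1 cluster it had 121 of 383 CPM in EL and 107 of 530 CPM in EIS. In the NKG7 cluster it had 68.6 of 122 CPM in EL and 71.7 of 579 CPM in EIS. The trophoblast sum thus cannot be read as RNA of another cell type alone. COL1A1, COL1A2, PDGFRA, COL5A1 and POSTN were at 0 in EL. The part of such RNA in the results below was not tested. The libraries shared 27 barcodes.

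All 3 genes were lower in EL than in EIS lymphocytes. KLF2, the transcription factor, had 949.7 CPM (interval 833 to 1078, 238 UMIs) in EL and 2626 CPM (2510.1 to 2746, 1931 UMIs) in EIS, 2.77-fold lower in EL (2.42 to 3.18). S1PR1, the egress receptor, had 87.8 CPM (55.0 to 133) in EL and 170.0 CPM (141.5 to 203) in EIS, 1.94-fold lower in EL (1.22 to 3.20), on 22 EL and 125 EIS UMIs. IL7R, the cytokine receptor chain, had 108 CPM (71.0 to 157) in EL and 280.1 CPM (243 to 321) in EIS, 2.60-fold lower in EL (1.74 to 4.04), on 27 EL and 206 EIS UMIs. The intervals of the 2 libraries did not overlap for any of the 3 genes. KLF2 and IL7R lay past a 2-fold difference and S1PR1 just short of it. Of the 5975 genes with at least 20 UMIs in these cells, 361 were lower in EL by 2-fold or more, which is 6.04%, and 454 were higher in EL by as much, which is 7.6%. The members were chosen by this contrast, so nothing is read from their place among them. With trimmed mean (TMM) scaling in place of the class total, 544 genes were lower and 283 higher in EL. The median gene lay at a log2 ratio of EL over EIS of 0.10, and TMM scaling moves all such ratios by 0.23 downward.

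**Figure D1:**
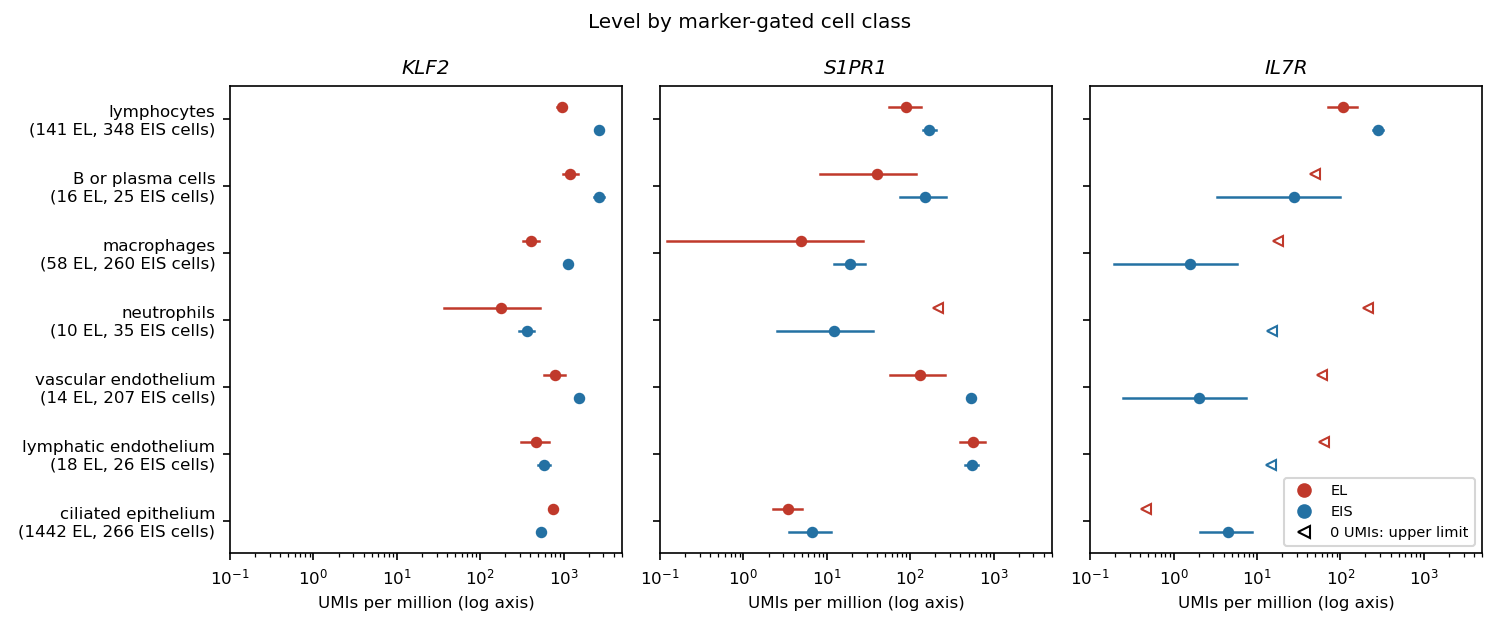
Level of KLF2, S1PR1 and IL7R in CPM (log axis) by marker-gated class, EL in red above EIS in blue, with 95% Poisson intervals and open triangles for the upper limit where no UMI was found. In lymphocytes all 3 genes lie lower in EL, in macrophages KLF2 has 412 CPM in EL and 1139 CPM in EIS, and in ciliated epithelium KLF2 is higher in EL.

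The share of cells with a UMI followed the same order. KLF2 was found in 47.5% (39.1 to 56.1) of EL and 83.0% (78.7 to 86.8) of EIS lymphocytes. S1PR1 was found in 10.6% (6.08 to 16.9) of EL and 21.8% (17.6 to 26.6) of EIS lymphocytes. IL7R was found in 11.3% (6.63 to 17.8) of EL and 18.4% (14.5 to 22.9) of EIS lymphocytes, with overlapping intervals. EL cells were shallower, so each cell was also thinned to 1000 UMIs, which left out 13 EL and 6 EIS cells. The thinned shares were 42.2% in EL and 74.9% in EIS for KLF2. They were 8.59% in EL and 13.2% in EIS for S1PR1, and 8.59% in EL and 11.1% in EIS for IL7R. At equal depth the share was still lower in EL for each gene, but the intervals were apart for KLF2 only. They overlapped for S1PR1 (4.37 to 14.9 in EL, 9.76 to 17.2 in EIS) and for IL7R (4.37 to 14.9 in EL, 7.98 to 14.9 in EIS). On the thinned UMIs the log2 ratio of IL7R was -0.68, against -1.38 on all UMIs. As a measure of stray transcripts, the ciliated epithelial gate, with a median of 5258.5 UMIs in EL and 6769.5 in EIS, had S1PR1 in 1.73% of EL and 4.14% of EIS cells and IL7R in 0% of EL and 0.752% of EIS cells. The upper bound for the EL share of IL7R there was 0.255%. Such shares varied between other EIS clusters. In EIS cells of a cluster led by ACTG2 they were 7.04% for S1PR1 and 2.39% for IL7R, and in one led by SLPI 2.20% and 0%. Over all kept cells S1PR1 had 4.01 CPM in EL and 45.2 CPM in EIS, and IL7R 1.77 CPM in EL and 11.4 CPM in EIS. The ciliated shares thus set no upper limit for stray transcripts in EIS. KLF2 cannot be read this way, because epithelium had many KLF2 UMIs.

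Lymphocytes formed 3 clusters, computed with the 3 genes left out of the clustering and called here by a leading gene. The XCL1 cluster is named for a chemokine of cytotoxic and innate lymphocytes and held 134 EL and 104 EIS cells. The NKG7 cluster, with the cytotoxic granule gene NKG7, CCL5 and CD8A among its genes, held 97 EL and 296 EIS cells. CCL5 did not set it apart in EL, with 11043 CPM in the NKG7 cluster and 11678 CPM in the XCL1 cluster. In EIS CCL5 had 7458 CPM in the NKG7 cluster and 2960.0 CPM in the XCL1 cluster. The RHEX cluster held 46 EL and 119 EIS cells, and CD163L1, a scavenger receptor gene known in pigs from gamma delta T cells, was among its leading genes. CD163L1 came mostly from EIS, with 61.9 CPM (4 UMIs) in EL and 436 CPM (102 UMIs) in EIS. RHEX itself had 1780 CPM in EL and 1769 CPM in EIS. Whether this cluster holds the same kinds of cell in both libraries was not tested.

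The XCL1 cluster showed the widest gap between the libraries, for all 3 genes. KLF2 had 268 CPM (199 to 355, 49 UMIs) in EL and 1298 CPM (1163 to 1444, 338 UMIs) in EIS, 4.83-fold lower in EL (3.58 to 6.66). S1PR1 had 49.3 CPM (22.5 to 93.6, 9 UMIs) in EL and 322 CPM (257 to 399, 84 UMIs) in EIS, 6.54-fold lower in EL (3.29 to 14.8). IL7R had 169.8 CPM (115 to 241, 31 UMIs) in EL and 802 CPM (697 to 919, 209 UMIs) in EIS, 4.73-fold lower in EL (3.23 to 7.13). In this cluster 163 of 3412 genes, 4.78%, were lower in EL by 2-fold or more. The shares of genes with a lower ratio were 1.03% for KLF2, 0.615% for S1PR1 and 1.06% for IL7R, given as a description, since the cells overlap those of the contrast by which the genes were chosen.

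The NKG7 cluster showed a smaller gap in KLF2. KLF2 had 1989 CPM (1755 to 2246) in EL and 3247 CPM (3093 to 3406) in EIS, 1.63-fold lower in EL (1.43 to 1.87). S1PR1 had 137 CPM (81.3 to 217) in EL and 98.8 CPM (73.6 to 129.9) in EIS, with overlapping intervals and an EL over EIS ratio of 1.39 (0.763 to 2.42). IL7R was close to absent from these cells, with 0 UMIs in EL, which leaves up to 28.1 CPM inside the interval, and 5 UMIs, 9.69 CPM, in EIS. In this cluster 7.88% of the genes tested were lower in EL by 2-fold or more.

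In the RHEX cluster the 3 genes had about the same level in the 2 libraries. KLF2 had 2910.1 CPM (2509 to 3357) in EL and 2846 CPM (2634 to 3071) in EIS, an EL over EIS ratio of 1.02 (0.865 to 1.204). S1PR1 had 356 CPM (226 to 534) in EL and 329 CPM (259.7 to 411) in EIS, a ratio of 1.08 (0.648 to 1.74). IL7R had 309.6 CPM (189 to 478) in EL and 291 CPM (226 to 368) in EIS, a ratio of 1.07 (0.613 to 1.78). In this cluster 184 of 2372 genes, 7.76%, were lower in EL by 2-fold or more, and none of the 3 was among them. The intervals leave ratios of up to 1.204 for KLF2 and up to 1.78 for IL7R inside them. With TMM scaling the log2 ratios here were -0.26 for KLF2, -0.18 for S1PR1 and -0.20 for IL7R, all below 0, since that scaling lowers all ratios in this cluster by 0.29 on the log2 scale. In the RHEX cluster cells inside the gate, 12 in EL and 54 in EIS, S1PR1 had 656 CPM (339 to 1146) in EL and 326 CPM (229.6 to 449.6) in EIS, with overlapping intervals and a log2 ratio of 1.009. Whether the gap differs between clusters was not tested, for want of a second library in either group.

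**Figure D2:**
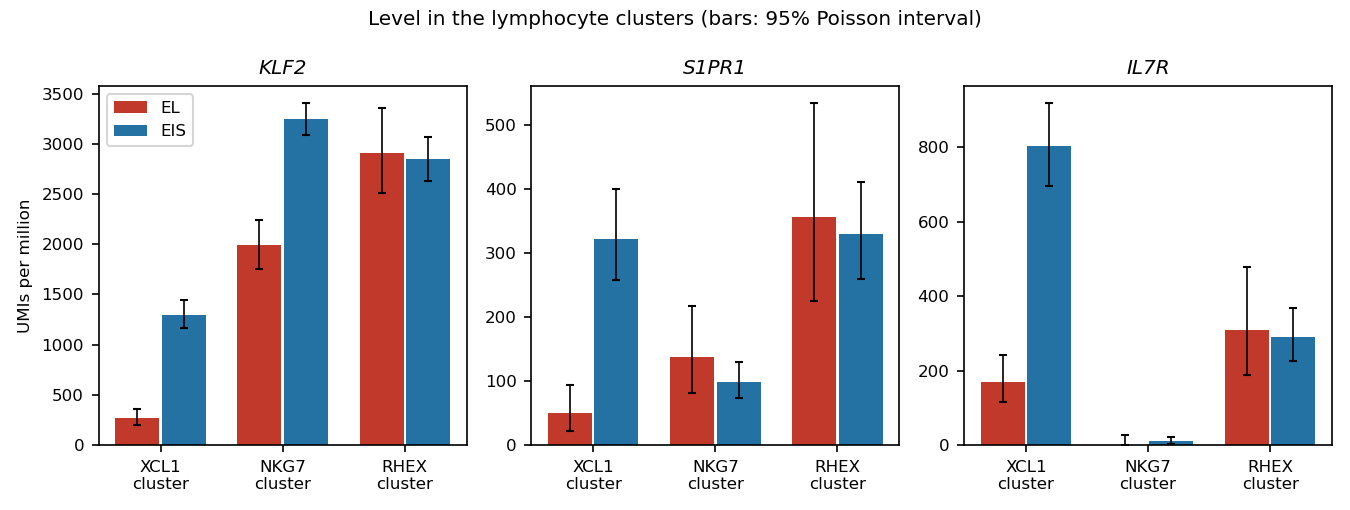
Level of KLF2, S1PR1 and IL7R in the 3 lymphocyte clusters, in CPM, with EL (red) left of EIS (blue) and 95% Poisson intervals. The EL bars stand far below the EIS bars in the XCL1 cluster, and the intervals of both libraries overlap for every gene in the RHEX cluster.

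The make-up of the lymphocytes also differed between the sows. Of the gated lymphocytes, 76 of 141 in EL and 69 of 348 in EIS were in the XCL1 cluster, which has the lowest KLF2 level of the 3 in each library. The NKG7 cluster held 45 EL and 217 EIS gated cells, the RHEX cluster 12 EL and 54 EIS cells, and other clusters 8 EL and 8 EIS cells. Over all cells of the 3 clusters, KLF2 had 1316 CPM in EL and 2652 CPM in EIS, 2.01-fold lower in EL (1.83 to 2.22). S1PR1 was 1.59-fold lower in EL (1.16 to 2.21) over the same cells, and IL7R 2.07-fold lower (1.53 to 2.85). With the clusters given equal weight, the level was lower in EL by 1.43-fold for KLF2, 1.38-fold for S1PR1 and 2.30-fold for IL7R. With the EL mix of clusters in both libraries, the folds lower in EL were 1.70 for KLF2, 1.86 for S1PR1 and 3.27 for IL7R. With the EIS mix they were 1.51 for KLF2, 1.27 for S1PR1 and 2.42 for IL7R. At an equal mix the fold was thus smaller than the pooled one for KLF2 and larger for IL7R under each of these weights, and for S1PR1 it depended on the weights.

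The presence of single marker UMIs split the gated lymphocytes in other ways, with no clustering. With an XCL1 UMI (59 EL and 32 EIS cells), KLF2 had 303 CPM (204.5 to 433) in EL and 734 CPM (560.3 to 945) in EIS, 2.42-fold lower in EL (1.54 to 3.89). IL7R had 50.5 CPM on 5 UMIs in EL and 343 CPM on 28 UMIs in EIS. S1PR1 had 0 UMIs in EL, which leaves up to 37.3 CPM inside the interval, and 10 UMIs, 122 CPM, in EIS. Without an XCL1 UMI (82 EL and 316 EIS cells), KLF2 was 2.09-fold lower in EL (1.81 to 2.42), IL7R 1.88-fold lower (1.202 to 3.07), and S1PR1 had 145 CPM in EL and 176 CPM in EIS with overlapping intervals. A gap in S1PR1 was not detectable at this depth among the cells without an XCL1 UMI.

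T cell receptor complex and CD8 transcripts gave a mixed order. Cells with a UMI of CD3D, the CD3 chain with counts in the files, numbered 70 in EL and 204 in EIS. KLF2 was 2.61-fold lower in EL among them (2.14 to 3.22) and 3.01-fold lower among the rest (2.50 to 3.64). IL7R was 4.32-fold lower in EL with a CD3D UMI (2.03 to 11.0), on 7 EL UMIs, and 2.06-fold lower without one (1.26 to 3.53). Among the 39 EL and 174 EIS cells with a CD8A UMI, IL7R had 104 CPM in EL and 122 CPM in EIS, with overlapping intervals. Without a CD8A UMI IL7R was 4.04-fold lower in EL (2.53 to 6.79), with 109 CPM in EL and 441 CPM in EIS.

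Cells with no KLF2 UMI were more frequent in EL in the XCL1 and NKG7 clusters. At this depth fewer cells with KLF2 and a lower level in each cell cannot be told apart. At 1000 UMIs per cell, 85.0% of 107 EL cells and 46.5% of 101 EIS cells of the XCL1 cluster had no KLF2 UMI. In the NKG7 cluster the shares without KLF2 were 31.4% in EL and 16.2% in EIS. In the RHEX cluster they were 12.8% in EL and 25.0% in EIS, the opposite order, on 5 of 39 EL cells and 29 of 116 EIS cells. Cells with 3 or more KLF2 UMIs made up 2.80% of EL and 14.9% of EIS cells in the XCL1 cluster.

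**Figure D3:**
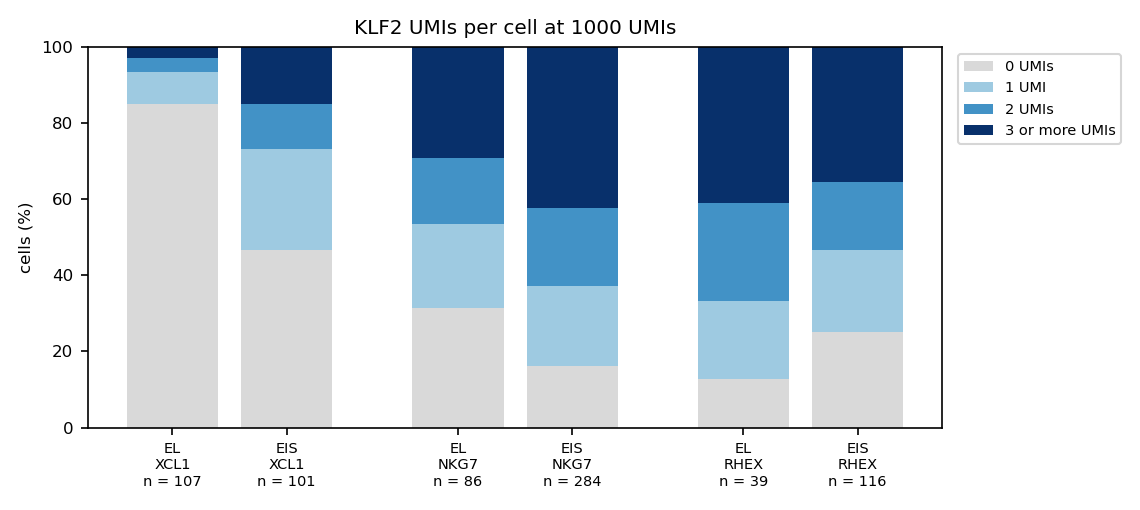
Share of cells (%) with 0, 1, 2 and 3 or more KLF2 UMIs after thinning each cell to 1000 UMIs, by lymphocyte cluster, EL left of EIS. In the XCL1 cluster 85.0% of EL cells and 46.5% of EIS cells have no KLF2 UMI.

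In the lymphocyte gate S1PR1 was found mostly in cells that also held KLF2. Of the gated lymphocytes with an S1PR1 UMI, 15 of 15 in EL and 72 of 76 in EIS also had a KLF2 UMI. Among the gated cells without S1PR1 the shares with KLF2 were 41.3% in EL and 79.8% in EIS. In the XCL1 cluster, where KLF2 is lower, S1PR1 came with KLF2 in 3 of 6 EL and 34 of 38 EIS cells. IL7R came with KLF2 there in 7 of 18 EL cells (38.9%) and 44 of 63 EIS cells (69.8%), while cells without IL7R held KLF2 in 11.2% of EL and 46.3% of EIS cells. Over the whole gate the shares with KLF2 were 56.25% with and 46.4% without IL7R in EL. In EIS they were 70.3% with and 85.9% without IL7R, the opposite order. The RHEX cluster had 78.6% with and 93.75% without IL7R in EL, and 93.75% with and 83.9% without in EIS. All 3 transcripts were found in 4 EL and 22 EIS gated lymphocytes. Deeper cells have more of every transcript, and the part of depth in these shares was not tested.

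Other genes of lymphocyte traffic lay mostly a little below the median gene. Over the gated lymphocytes, 10 genes of recirculation and of the naive or memory state had enough UMIs, and 1 of them, S1PR5, was lower in EL by 2-fold, with none higher by as much, beside 6.04% and 7.6% of all genes. S1PR5, the sphingosine 1-phosphate receptor of natural killer and effector cells, had 43.9 CPM in EL and 118 CPM in EIS, 2.70-fold lower in EL (1.43 to 5.599). The median log2 ratio of the list was -0.21, beside 0.10 for all genes, and 8 of the 10 lay below that all-gene median. In the same cells CXCR4, a chemokine receptor for homing, had 766 CPM in EL and 534 CPM in EIS. GPR183, an oxysterol receptor that guides lymphocytes, had 219 CPM in EL and 228 CPM in EIS with overlapping intervals.

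In the XCL1 cluster 7 genes of that list were measured and 2 were lower in EL by 2-fold, beside 4.78% of all genes. The median log2 ratio of the list was -0.58 beside 0.15 for all genes, and 6 of the 7 lay below that all-gene median. LEF1, a transcription factor of naive T cells, had 65.7 CPM (34.0 to 115) in EL and 227 CPM (172 to 292) in EIS, 3.45-fold lower in EL (1.83 to 7.04). FOXP1, a factor of T cell quiescence, had 54.8 CPM in EL and 165 CPM in EIS, 3.01-fold lower in EL (1.49 to 6.73). GPR183 had 246 CPM in EL and 430.0 CPM in EIS, 1.74-fold lower in EL (1.22 to 2.52). SATB1 and CXCR4 had overlapping intervals. In the RHEX cluster none of the 8 measured genes lay past 2-fold in either direction, and 2 were lower by as much with TMM scaling. Of all genes there, 7.76% were lower and 5.9% higher in EL by 2-fold.

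Genes known from tissue-retained lymphocytes went both ways in the XCL1 cluster. Of 8 measured, 1 was lower and 2 were higher in EL by 2-fold, beside 4.78% of all genes lower and 310 of 3412, 9.09%, higher. The median log2 ratio of the list was 0.50 beside 0.15 for all genes, and 2 of the 8 lay below that all-gene median. CD69, whose protein removes S1PR1 from the cell surface, had 799.7 CPM (675 to 940.5) in EL and 2085 CPM (1913 to 2268) in EIS, 2.61-fold lower in EL (2.17 to 3.15). RGS1, a brake on chemokine receptor signals, had 3895 CPM in EL and 1812 CPM in EIS, an EL over EIS ratio of 2.15 (1.91 to 2.42). HOPX, a homeodomain gene of effector and resident T cells, had 488 CPM in EL and 104 CPM in EIS, a ratio of 4.70 (3.03 to 7.53). With TMM scaling RGS1 was under 2-fold, with a log2 ratio of 0.93. Over all gated lymphocytes CD69 had 503 CPM in EL and 1070.2 CPM in EIS, and RGS1 and HOPX had overlapping intervals. The list median there was -0.43 beside 0.10 for all genes, with 8 of 9 genes below the all-gene median. It was -0.67 beside 0.01 in the NKG7 cluster, with 8 of 9 below. In the RHEX cluster it was -0.57 beside 0.05, with 4 of 4 below. The list thus lay above all genes in the XCL1 cluster alone.

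Partners of S1PR1 in the sphingosine 1-phosphate axis showed little difference in the XCL1 cluster. Only 3 genes of that list were measured there, and none lay past 2-fold. GNAI2, a G protein subunit that S1PR1 signals through, had 367 CPM in EL and 388 CPM in EIS. ARRB2, an arrestin, had 121 CPM in EL and 138 CPM in EIS, and RAC1, a small GTPase, 142 CPM in EL and 92.1 CPM in EIS, all with overlapping intervals.

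Genes around interleukin 7 signalling also went both ways in the XCL1 cluster, with 1 of 10 measured lower and 2 higher in EL by 2-fold, beside 4.78% of all genes lower and 9.09% higher. The median log2 ratio of the list was 0.24, and 5 of the 10 lay below the all-gene median of 0.15. SOCS3, a feedback inhibitor of cytokine receptors, had 60.3 CPM (30.1 to 108) in EL and 311 CPM (247 to 386) in EIS, 5.16-fold lower in EL (2.74 to 10.7). IL2RB, the beta chain shared by the receptors of interleukin 2 and interleukin 15 and 1 of the markers of the lymphocyte gate, had 471 CPM in EL and 149.7 CPM in EIS, a ratio of 3.15 (2.13 to 4.72). PIK3R1, a regulatory subunit of phosphoinositide 3-kinase, had 750.4 CPM in EL and 330.2 CPM in EIS, a ratio of 2.27 (1.72 to 3.01). JAK1, the kinase bound to IL7R, had 887 CPM in EL and 825 CPM in EIS, with overlapping intervals. SOCS3 was lower in EL in the RHEX cluster too, with 155 CPM in EL and 492 CPM in EIS, where IL7R itself was not.

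KLF relatives of KLF2 lay nearer to equal levels. KLF6, the family member with the most UMIs besides KLF2, had 926 CPM in EL and 975 CPM in EIS in the XCL1 cluster, with overlapping intervals. KLF13 had 208 CPM in EL and 311 CPM in EIS there, 1.49-fold lower in EL (1.00 to 2.26). Over all gated lymphocytes 1 of 7 measured relatives, KLF11, was lower in EL by 2-fold, beside 6.04% of all genes. It had 4 EL and 24 EIS UMIs, with overlapping intervals. The median log2 ratio of the 7 was -0.19 beside 0.10 for all genes, and 6 of them lay below that all-gene median. TXNIP and MEF2D, from the list of KLF2 regulators and targets, had overlapping intervals in the XCL1 cluster.

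**Figure D4:**
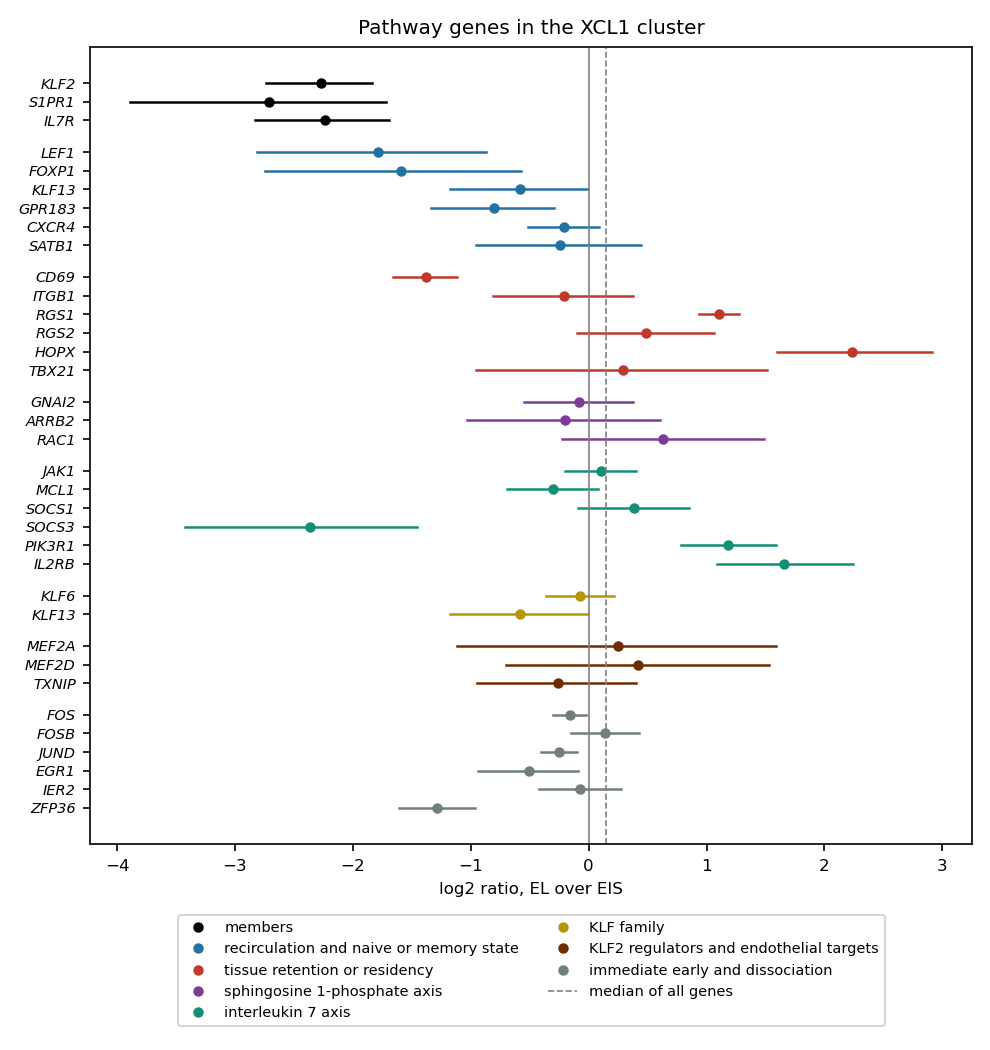
Log2 ratio of EL over EIS in the XCL1 cluster for KLF2, S1PR1, IL7R and the most abundant measured genes of each pathway list, with 95% conditional intervals, a solid line at equal levels and a dashed line at the median of all genes (0.15). KLF2, S1PR1 and IL7R lie at -2.27, -2.71 and -2.24, with SOCS3 beside them, and HOPX, IL2RB, PIK3R1 and RGS1 lie on the other side.

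Several other measures moved with the XCL1 cluster. CCL5, a cytotoxic cell chemokine, had 11678 CPM in EL and 2960.0 CPM in EIS. XCL1 itself had 1835 CPM in EL and 645 CPM in EIS, and PRF1, the perforin gene, 214 CPM in EL and 38.4 CPM in EIS. The cells of the 2 libraries in this cluster thus differed in its own leading genes, and a different mix of cells and a different level per cell cannot be told apart. Summed stromal markers had 16.4 CPM in EL and 372 CPM in EIS there, with 3 of 9 detected in EL and 7 of 9 in EIS. In the RHEX cluster they had 15.5 CPM in EL and 350.5 CPM in EIS. Immediate early genes, which digestion of tissue can induce and which include known companions of KLF2, had a sum of 12451 CPM in EL against 14904 CPM in EIS in the XCL1 cluster, and of 16578 CPM in EL against 21874 CPM in EIS in the RHEX cluster. In the XCL1 cluster 2 of 14 measured immediate early genes were lower in EL by 2-fold, beside 4.78% of all genes. ZFP36 was among them, with 581 CPM in EL and 1413 CPM in EIS. The median log2 ratio of the list was -0.38 beside 0.15 for all genes, with 12 of the 14 below that all-gene median. Over the gated lymphocytes the list median was -0.51 beside 0.10, with 13 of 15 below. In the RHEX cluster it was -0.49 beside 0.05, with 10 of 15 below. The part of stromal RNA and of immediate early genes in the levels of the 3 genes was not tested.

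In other immune cells KLF2 was lower in EL as well. The macrophage gate held 58 EL and 260 EIS cells, and KLF2 had 412 CPM (329 to 509) in EL and 1139 CPM (1080.4 to 1199) in EIS, 2.77-fold lower in EL (2.22 to 3.48). In this gate 664 of 7440 genes, 8.92%, were lower in EL by 2-fold or more. Of the gated cells, 96.6% in EL but 62.3% in EIS lay in macrophage clusters, so the EIS gate was mixed. By those clusters, 177 EL and 249 EIS cells, KLF2 had 426 CPM in EL and 1455 CPM in EIS, 3.42-fold lower in EL (2.96 to 3.96). The cluster led by CCL8 and complement gene C1QB had 350 CPM in EL and 1007 CPM in EIS. A cluster led by FCER1G and FCGR3A, Fc receptor genes of monocytes, had 1681 CPM in 7 EL cells and 3210.3 CPM in 59 EIS cells. S1PR1 had 1 UMI in the EL gate and 24 in the EIS gate, and IL7R 0 in EL and 2 in EIS, too few in EL for a comparison.

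B or plasma cells and neutrophils were few. In gated B or plasma cells KLF2 had 1209.7 CPM (973 to 1487) in 16 EL cells and 2676 CPM (2314 to 3079) in 25 EIS cells, without overlap of the intervals. By cluster, 20 EL and 34 EIS cells, KLF2 was 2.18-fold lower in EL (1.71 to 2.78). S1PR1 had 3 UMIs in the EL gate and 11 in the EIS gate, and IL7R 0 in EL and 2 in EIS. Gated neutrophils had 3 KLF2 UMIs in 10 EL cells and 88 in 35 EIS cells, too few in EL for a comparison. The neutrophil cluster had 170.4 CPM in 26 EL cells and 903 CPM in 140 EIS cells, 5.30-fold lower in EL (2.84 to 10.9). The EIS level depended on which cells were taken, since gated EIS neutrophils had 361 CPM (289 to 444). KLF2 was found in 34.6% of EL and 35.0% of EIS cells of the cluster, at a median depth of 1609 UMIs in EL and 588.5 UMIs in EIS.

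Endothelium, where KLF2 responds to blood flow and S1PR1 keeps vessel junctions closed, held the highest S1PR1 levels of the cell types described in EIS. In EL, S1PR1 had 567 CPM in gated lymphatic endothelium, 356 CPM (226 to 534) in the RHEX cluster and less in vascular endothelium. In gated vascular endothelium S1PR1 had 132 CPM (57.2 to 261, 8 UMIs) in 14 EL cells and 531 CPM (486 to 578, 524 UMIs) in 207 EIS cells. KLF2 had 795 CPM (586 to 1053) in the EL gate and 1521 CPM (1445 to 1599.9) in the EIS gate. By cluster the EL levels were higher, where 17 EL cells had 1404 CPM of KLF2 and 338 EIS cells 1463 CPM, and S1PR1 had 266 CPM (133 to 476) in EL against 503 CPM in EIS. The KLF2 gap in vascular endothelium thus rested on which 14 or 17 EL cells were taken, and no fold is given. NOS3, an endothelial target of KLF2, had 66.2 CPM (18.0 to 169.5, 4 UMIs) in EL gated cells and 169 CPM (144 to 197) in EIS gated cells, with overlapping intervals.

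Lymphatic endothelium, the exit through which lymphocytes leave a tissue, had about equal levels. S1PR1 had 567 CPM (390.5 to 797) in 18 EL cells and 545 CPM (457 to 644) in 26 EIS cells of the gate. KLF2 had 464 CPM (306 to 675) in EL and 584 CPM (494 to 687) in EIS. By cluster, 30 EL and 134 EIS cells, S1PR1 had an EL over EIS ratio of 1.36 (0.934 to 1.94) and KLF2 of 0.832 (0.559 to 1.201). IL7R had 0 UMIs in both gated endothelial classes of EL, and 2 UMIs in vascular and 0 in lymphatic cells of EIS.

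Ciliated epithelium had the opposite order for KLF2. It was higher in EL, with 756 CPM (737 to 775) in 1442 EL cells and 535 CPM (504 to 569) in 266 EIS cells, an EL over EIS ratio of 1.41 (1.32 to 1.51). S1PR1 had 3.42 CPM in EL and 6.56 CPM in EIS ciliated cells, and IL7R had 0 UMIs in EL and 9 in EIS. Most other clusters, left unnamed by the markers, held nearly all their cells from 1 library, so their levels are given with no ratio. Among those of EL, KLF2 ran from 16.2 CPM in one led by CYP26A1, a retinoic acid oxidase gene, through 35.2 CPM in one led by JPH4 and 49.1 CPM in one led by CCK, to 454 CPM in one led by CLDN10 and PON3. Among those of EIS it was 307 CPM in the one led by SLPI, the gene of a secreted protease inhibitor, and 566 CPM in the one led by the metallothionein MT1D. Trophoblast-like clusters, present in EIS alone, had 326 CPM of KLF2, 23.9 CPM of S1PR1 and 3.47 CPM of IL7R over 1881 cells. A stromal cluster found in both libraries had 540 CPM (402 to 709) of KLF2 in 52 EL cells. It had 736 CPM (633 to 851) in 36 EIS cells, with overlapping intervals. A stromal cluster of EIS alone had 252 CPM of KLF2. EIS cells of the cluster led by ACTG2 and ACTA2, both smooth muscle markers, had 479 CPM.

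The order of levels was drawn up over the 30 cluster and library units of at least 50 cells. Among the EL units below this size, and so without a rank, were the RHEX cluster (46 cells) and lymphatic endothelium (30 cells). That RHEX unit had 2910.1 CPM of KLF2, 356 CPM of S1PR1 and 309.6 CPM of IL7R, and that lymphatic unit 509 CPM of S1PR1. Within the 30 units KLF2 was highest in EIS cells of the NKG7 cluster (3247 CPM), the FCER1G cluster (3210.3 CPM) and the RHEX cluster (2846 CPM), followed by EL cells of the NKG7 cluster (1989 CPM). EL cells of the XCL1 cluster took rank 22 of 30, among trophoblast-like, stromal and unnamed units. S1PR1 was highest in EIS vascular endothelium (503 CPM), then in EIS lymphatic endothelium (373 CPM), and in EIS cells of the RHEX and XCL1 clusters. IL7R was highest in EIS cells of the XCL1 cluster (802 CPM), then in EIS cells of the RHEX cluster (291 CPM) and EL cells of the XCL1 cluster (169.8 CPM). It was at most 12.5 CPM in every other of the 30 units, 14 of them at 0 UMIs. Between neighbours in the order, the intervals overlapped in 19 of 29 pairs for KLF2, 26 for S1PR1 and 27 for IL7R.

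**Figure D5:**
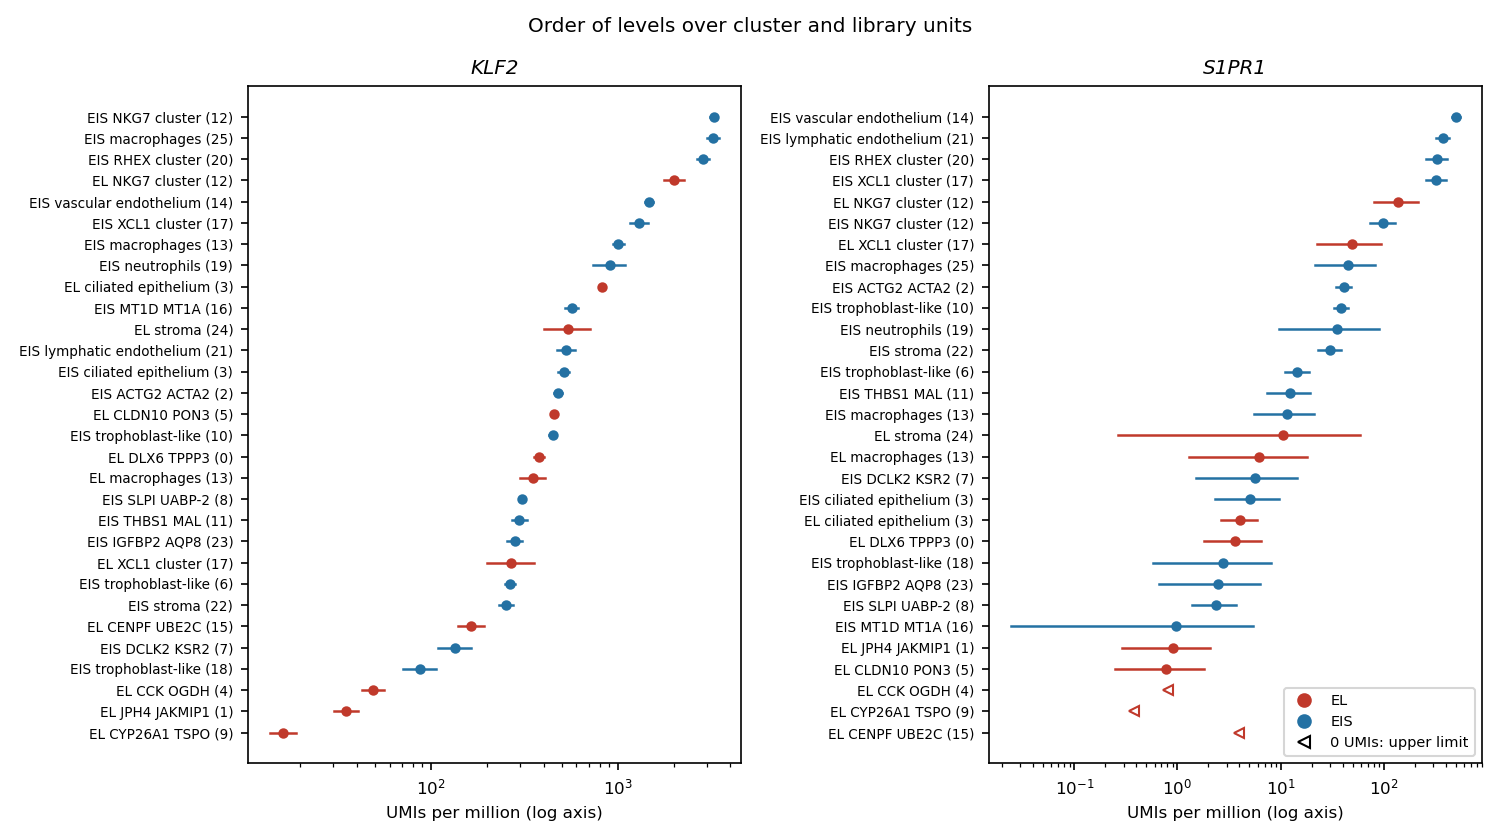
Levels of KLF2 and S1PR1 in CPM (log axis) in the 30 cluster and library units of at least 50 cells, EL in red and EIS in blue, sorted by level, with 95% Poisson intervals and open triangles for upper limits at 0 UMIs. KLF2 is highest in lymphocyte units and the FCER1G cluster, S1PR1 in endothelium, and the EL XCL1 cluster sits at rank 22 for KLF2. EL cells of the RHEX cluster (46) and of lymphatic endothelium (30) were too few to be shown.

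Genes most like each of the 3 were sought over the same 30 units among 3921 genes, by Pearson's r of log2(CPM + 10). The units share libraries and depth, so the values are descriptions. For KLF2 they were IRF1 (0.86), KLF6 (0.83), JUND (0.82), SERTAD1 (0.81) and ZFP36 (0.81). For S1PR1 they included TSPAN5 (0.86), PPP1R16B (0.83), ELK3 (0.83) and MYH9 (0.82). For IL7R they were DAPL1 (0.93), CD69 (0.89), STAT4 (0.82), PVRIG (0.82) and SPOCK2 (0.81). Without the lymphocyte units, 25 remained. The KLF2 and S1PR1 values given here then lay between 0.73 and 0.87, while those with IL7R were 0.68 for STAT4, 0.60 for CD69, 0.37 for PVRIG, 0.33 for DAPL1 and 0.08 for SPOCK2. Between the 3 genes, r was 0.65 for KLF2 and S1PR1, 0.52 for S1PR1 and IL7R and 0.29 for KLF2 and IL7R.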

How the data were processed

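Deposited were raw UMI counts of 1 EL and 1 EIS library, a value for each feature in each barcode. Per the submitters' processing notes the counts were made with Cell Ranger 2.1.1, while, per the file headers, cellranger 6.1.0 wrote the matrices. The build of the genome is not given in the sources used here, so no coordinates or sequences are printed. Depth was 43302286 UMIs in 10936 EL barcodes and 36069473 UMIs in 8848 EIS barcodes.

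Barcodes with at least 500 UMIs and 300 genes were kept. Scrublet (scanpy 1.11.5) scored doublets. Its automatic threshold marked 0 EL and 1 EIS barcodes, so the top 0.8% per 1000 barcodes were removed, 933 in EL and 601 in EIS. Classes with at least 3 markers in a cell were compared by the share of their measured markers found, and the largest share gave the gate. A cell was left out as mixed where another such class reached 0.75 times that share. Endothelial cells with at least 2 lymphatic markers formed the lymphatic gate. Cells of the epithelial gate or of no gate with at least 3 ciliated markers formed the ciliated gate. Clusters came from 2000 variable genes without the 3 members, 30 components, 15 neighbours and leidenalg 0.10.2 at resolution 1.0, without integration. Gates for stroma, smooth muscle and other epithelium were unreliable, because few of their markers were in the features used here or those were found across many clusters, so those types were described by clusters. Likeness was taken over clusters and not over gated classes for the same reason.

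Folds need at least 20 cells in each library, and genes counted past 2-fold need at least 20 UMIs. Where 1 library had 0 UMIs, 3 UMIs set the bound for such counts, and no fold was given where both were at or under 3. The computation was tested on simulated counts. Named genes were the 3 members, up to 6 measured genes per list by UMIs, and the 5 genes most like each member, of which 1 is not reported here. KLF11 and the cluster genes CCL5, XCL1 and PRF1 were named after their values were seen. The members and lists were chosen with earlier results of these data known. Symbols such as CCR7 and TCF7 were not analysed here. Alternatives covered gates, filters, scalings, free RNA and depth. scipy 1.17.1, numpy 2.4.6 and pandas 2.3.3 were used.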

Additional observations from a re-analysis of the deposited data

Results flagged for a closer look

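KLF2 had opposite directions in 2 kinds of cell. Its log2 ratio of EL over EIS was 0.50 in ciliated epithelium, against -1.47 in lymphocytes and -1.47 in macrophages, and this difference between cell classes was not tested because each group is 1 library. The ciliated ratio lay between 0.32 and 0.69 under all 12 alternatives run, and the macrophage ratio between -1.85 and -1.29.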

How the results depend on the processing

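Every one of the 14 alternatives kept all 3 genes lower in EL lymphocytes, and each of the 8 or 9 run in the XCL1 cluster kept them lower there. The RHEX cluster ratios, close to 0, changed sign with TMM factors and at resolution 0.5, and that of KLF2 also in cells inside the gate (-0.29) and relative to the median gene (-0.02), while S1PR1 had 1.009 inside the gate. The log2 ratio of KLF2 (-1.47) was -2.02 in cells with at least 1000 genes, -1.01 by clusters and -1.69 with TMM factors. That of S1PR1 (-0.95) was -3.11 at 1000 genes. That of IL7R (-1.38) was -3.31 at 1000 genes, -2.11 in cells with a CD3 UMI and -0.68 after thinning. In the XCL1 cluster, with alternatives chosen after seeing the data, resolution 0.5 merged it with the RHEX cluster and gave -1.08 for KLF2 (-2.27), -1.33 for S1PR1 (-2.71) and -1.44 for IL7R (-2.24). Gated cells with an XCL1 UMI gave -1.28 for KLF2, and cluster cells inside the gate -3.97 for S1PR1. Genes lower in EL (361) numbered 106 at 50 UMIs, 804 at 1 UMI and 544 with TMM. Genes higher in EL (454) numbered 116, 1510 and 283, with 946 at 2 markers and 296 at 4. Fewer UMIs or cells enter some of these settings by construction, and the cause of the other shifts was not tested. No paired analysis was possible because each group is 1 library. S1PR1 and IL7R rest on 22 and 27 EL UMIs, which limits both.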
